A study of Mus musculus with 6 samples.

Results

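Mouse cortical neurons grown with an IKVAV peptide amphiphile (PA) were compared with control neurons by RNA sequencing. The comparison covers 4 of the 6 libraries of the series, 2 per group, and its libraries were chosen by name: the PA libraries carry IKVAV without PEDOT, and the control libraries carry PDL. All 4 came from wild-type CD1 mice, an outbred stock, and are labelled as cortical neurons. The treatment label reads peptide amphiphile in the control as well, so the control is known as such from its title and its PDL name alone. The remaining pair, PA + PS2, is not compared here. It enters the fit mainly to estimate the spread between libraries, and also shares in the gene filter, the scaling and the estimated difference between repeats. The sources used here do not give the age of the mice, the culture time, the dose, or whether a repeat was a separate culture or animal. P-values therefore measure the spread between these libraries, which may be technical.

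IKVAV is a short peptide sequence from the alpha 1 chain of laminin, a basement membrane protein that neurons and glia bind through integrins and other receptors. A peptide amphiphile joins such a sequence to a fatty tail, and the molecules assemble into nanofibres that show the peptide on their surface. PDL is the usual short form of poly-D-lysine, a positively charged coat on which neurons attach without a receptor-specific signal.

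Library totals were 33291775 and 33923681 counts in the control and 30714311 and 31819918 in PA, so depth was close in all 4. The repeats differed more than the groups did for many genes. The Y-linked helicase gene Ddx3y stood at 18.3 and 39.5 CPM (counts per 1000000 counts, scaled by TMM) in control 1 and control 2, and at 18.5 and 37.7 CPM in PA 1 and PA 2. Each PA library was therefore set against the control library of its own repeat. Repeat numbers were read from the titles. In the library names, PA 1 and control 1 carry the same T number, but PA 2 and control 2 carry different ones. What the T numbers mark is not stated, so by label the pairing in repeat 2 rests on the titles alone. Below, a ratio is the log2 of PA over control within a repeat, and a log2 fold change is the value fitted over all libraries with the repeat number as a block, given with its SE.

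Neuronal identity was plain in every library and did not separate PA from control. The dendritic microtubule protein gene Map2 was at 2191 and 2439 CPM in the control and 2163 and 2389 CPM in PA. Tubb3, the neuronal beta tubulin, was at 1632 and 1782 CPM in the control and 1727 and 1684 CPM in PA. Both genes overlapped between groups, with log2 fold changes of -0.02 (SE 0.07) for Map2 and -0.00 (SE 0.08) for Tubb3. All 16 pan-neuronal genes were measured, and their median ratio was 0.00 in repeat 1 and -0.06 in repeat 2. Markers of microglia and endothelium were scarce: 7 of 12 and 6 of 12 were high enough to test, and their summed levels ran from 8.45 to 9.94 and from 9.40 to 13.9 CPM.

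No single gene passed the test between PA and control. Of 17299 genes tested with edgeR (Benjamini-Hochberg adjusted p under 0.05), 0 were called, which is 0.0% of genes, and 251 had an unadjusted p under 0.05. Fitting only the 4 PA and control libraries called 2 of 16812 genes (0.0119%), the receptor gene Notch1 as higher in PA (adjusted p 0.0251) and the noncoding gene Gm26917 as lower (adjusted p 0.0067). DESeq2 with the same block called 1 gene, Lars2, as lower (adjusted p 0.0432), and DESeq2 without the block, limma-trend and limma-voom called 0. The count depended on which PA library was present. Without PA 1, 31 genes were called, 28 of them higher in PA, among them the astrocyte genes Slc1a3, Aldoc and Acsbg1. Without PA 2, 35 genes were called, 26 of them lower, led by Lars2, the ribosomal RNA gene CT010467.1 and mitochondrially encoded genes. Without control 1, 1 gene was called, the smooth muscle actin gene Acta2, as lower in PA (adjusted p 0.0155). In fits with a lone PA or control library, that library is assumed to vary like the other groups.

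The pair of repeats pointed in opposite directions for most genes. Of the 17299 tested genes, 4234 (24.5%) were above 0 in both repeats, 3542 (20.5%) were below 0 in both, and 55.0% differed in sign between them. Across genes, which are not independent replicates and share libraries, the ratio in repeat 1 and the ratio in repeat 2 had a Pearson r of -0.05. It grew more negative with level, from -0.12 (5 to 20 CPM) through -0.22 (20 to 100 CPM) to -0.37 in the genes above 100 CPM. The median SE of a log2 fold change was 0.07 above 100 CPM, where 61.2% of genes differed in sign. Genes that did move the same way are described next, and each is read against these shares.

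**Figure D1:**
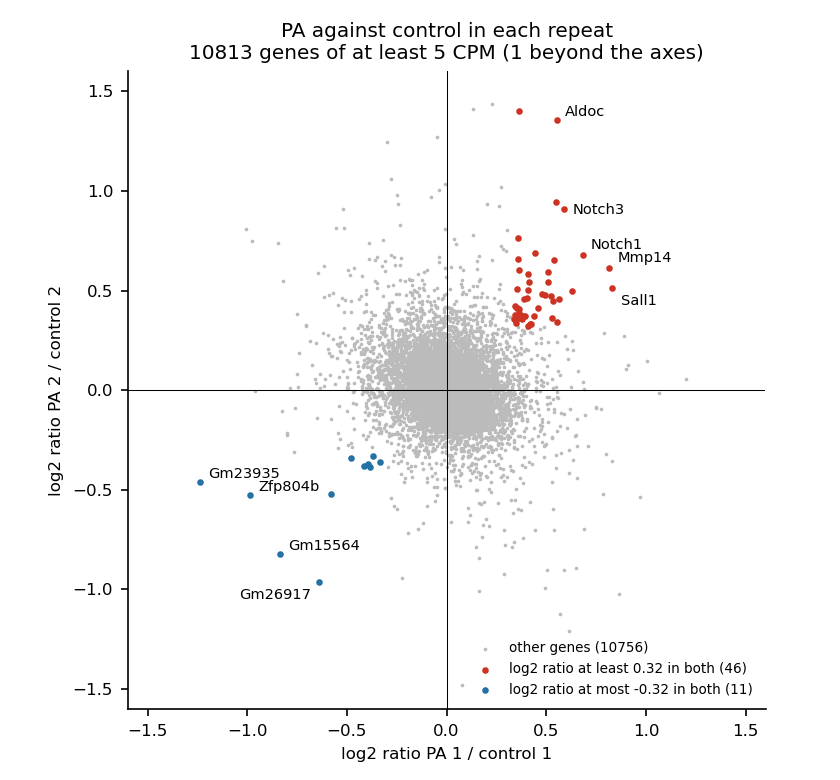
Log2 ratio of PA to control in repeat 1 (horizontal axis) and repeat 2 (vertical axis), with each point a gene of at least 5 CPM on average over the 4 libraries. The 46 genes with a ratio of at least 0.32 in both repeats are red, the 11 with a ratio of at most -0.32 in both are blue, and most of the 10813 genes lie around 0 with no upward slope.

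A gene was counted as higher where its ratio was at least 0.32 in each repeat, a level 25% above control, and as lower where it was at most -0.32 in each. By this count 224 of 13671 genes with a mean of at least 1 CPM (1.64%) were higher in PA and 111 (0.812%) were lower. Of these, 178 higher and 100 lower genes lay between 1 and 5 CPM, where the median SE of a log2 fold change was 0.33. At 5 CPM or more, 46 genes were higher and 11 were lower. A second count asked that both PA libraries lie on the same side of both control libraries: 2093 genes (12.1%) had PA above without overlap and 1677 (9.69%) had PA below. Of the 46 higher genes, 17 also had no overlap between groups, and the rest overlapped. No overlap requires PA above control in each repeat, for which the 46 were picked. The 12.1% is therefore not the share to set beside them. Of the 4234 genes above 0 in both repeats, 2093 had no overlap.

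Notch1 headed the higher genes. It encodes a receptor that keeps neural progenitors undifferentiated and favours glial over neuronal fate, and it lies on the minus strand at chr2:26457903-26516663 (GRCm38, protein coding). Its level was 8.84 CPM in control 1 and 14.2 CPM in PA 1, and 23.4 CPM in control 2 and 37.4 CPM in PA 2. PA was the higher library of each pair by the same ratio, 0.68 and 0.68, but control 2 exceeded PA 1, so the groups overlapped. The group means were 16.1 ± 10.3 CPM in the control and 25.8 ± 16.4 CPM in PA (SD, n = 2), and the log2 fold change was 0.68 (SE 0.19, edgeR unadjusted p 0.00533, adjusted p 1.00).

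The related receptor gene Notch3 (chr17:32120820-32166852, minus strand) was at 5.12 and 5.77 CPM in the control and 7.75 and 10.9 CPM in PA. Here both PA libraries lay above both controls, with ratios of 0.59 and 0.91 and a log2 fold change of 0.78 (SE 0.51, edgeR unadjusted p 0.184). Mmp14, a membrane-bound metalloprotease that cleaves matrix proteins and other surface proteins, was at 4.14 and 7.68 CPM in the control and 7.33 and 11.8 CPM in PA. Its ratios were 0.81 and 0.61, and the groups overlapped because control 2 lay above PA 1. Sall1, a zinc finger transcription factor of progenitors and microglia, was at 8.51 and 15.7 CPM in the control and 15.2 and 22.5 CPM in PA, with ratios of 0.83 and 0.51. It had the third smallest p-value of the fit (unadjusted p 0.000476, adjusted p 1.00).

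Aldoc and Aldh1l1, an aldolase and a folate enzyme used as astrocyte markers, were also among the first 12. Aldoc was at 2.80 and 7.86 CPM in the control and 4.13 and 20.2 CPM in PA, so PA 2 stood far above the other 3 libraries. Its ratios were 0.55 and 1.36. Aldh1l1 was at 4.97 and 13.2 CPM in the control and 7.29 and 25.4 CPM in PA, again with PA 2 highest and control 2 above PA 1. The log2 fold change of Aldh1l1 was 0.79 (SE 0.46, edgeR unadjusted p 0.154). Pla2g7, a secreted phospholipase that had the sixth smallest p-value, was at 1.43 and 3.90 CPM in the control and 2.55 and 11.5 CPM in PA, the same order of libraries.

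Slc7a3, a transporter of arginine and lysine, behaved differently, since the repeats were alike. Its level was 14.1 and 11.99 CPM in the control and 20.1 and 18.1 CPM in PA. Every PA library lay above every control library, with ratios of 0.51 and 0.59 and means of 13.0 ± 1.47 CPM in the control and 19.1 ± 1.39 CPM in PA (SD, n = 2). The log2 fold change was 0.55 (SE 0.15, edgeR unadjusted p 0.00251, adjusted p 1.00). Slc7a3 lies on the X chromosome at chrX:101079210-101086020 (minus strand).

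The other higher genes of the first 12 came from several functions. Bub1b and Hmmr, a spindle checkpoint kinase and a spindle-associated hyaluronan receptor, went from 3.45 and 6.85 to 4.94 and 9.9996 CPM and from 3.96 and 5.48 to 5.55 and 7.67 CPM. Hmmr did not overlap between groups, and Bub1b did. Hadh, a dehydrogenase of mitochondrial fatty acid oxidation, was at 4.26 and 5.95 CPM in the control and 6.62 and 8.42 CPM in PA. Camkmt, which methylates calmodulin, was at 4.23 and 4.41 CPM in the control and 6.16 and 6.97 CPM in PA. Gng12, a G protein gamma subunit, was at 9.91 and 13.8 CPM in the control and 14.0 and 19.2 CPM in PA. Hadh, Camkmt and Gng12 all had both PA libraries above both controls.

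**Figure D2:**
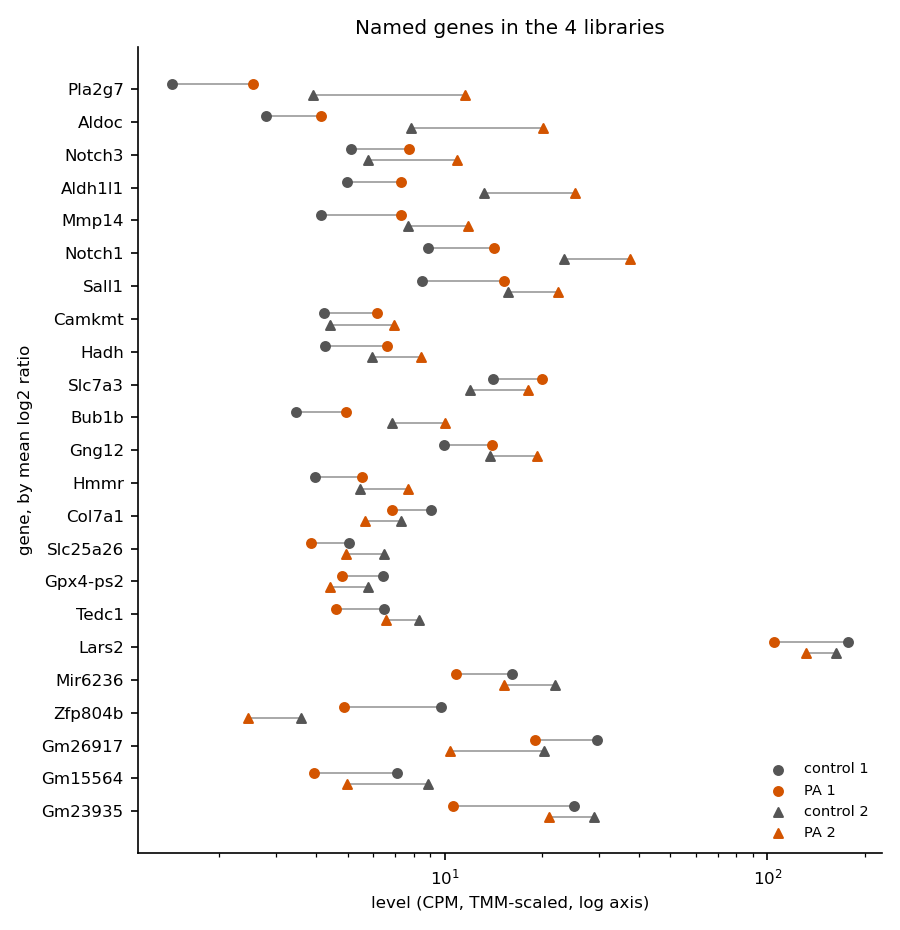
Level in CPM (TMM-scaled, log axis) of the genes ranked first in each direction by the smaller of their ratios, and of those with the smallest p-values. Circles are repeat 1, triangles repeat 2, grey control and orange PA. Each line joins PA to the control of its repeat: the upper genes move to the right in both repeats, while for Notch1 and Aldoc the control triangle lies to the right of the PA circle.

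Of the 11 lower genes at 5 CPM or more, 5 were unnamed gene models and 6 carried ordinary symbols. Zfp804b, a zinc finger gene, was at 9.71 and 3.57 CPM in the control and 4.87 and 2.46 CPM in PA, so its repeats differed more than its groups. Slc25a26, which carries S-adenosylmethionine into mitochondria, was at 5.03 and 6.49 CPM in the control and 3.84 and 4.95 CPM in PA, without overlap. Col7a1, the collagen of anchoring fibrils, was at 9.05 and 7.32 CPM in the control and 6.87 and 5.65 CPM in PA, also without overlap. Tedc1, a centriole protein gene, was at 6.46 and 8.33 CPM in the control and 4.62 and 6.56 CPM in PA, with overlap. Gpx4-ps2 was lower too, at 6.43 and 5.77 CPM in the control and 4.81 and 4.42 CPM in PA. It is uncertain, since 702 of the 772 words of 25 bases in its transcript also occur in Gpx4 transcripts.

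The smallest p-value of the fit belonged to Lars2, the leucyl-tRNA synthetase of mitochondria (chr9:123366927-123462666, plus strand). Lars2 was at 178 and 164 CPM in the control and 105 and 132 CPM in PA, so both PA libraries lay below both controls. Its ratios were -0.77 and -0.31, and the log2 fold change was -0.53 (SE 0.10, edgeR unadjusted p 0.000204, adjusted p 1.00). Mitochondrial tRNA synthetases as a list did not share that size. Of 17 tested genes, Lars2 among them, 6 were below 0 in both repeats and 2 above, with median ratios of -0.04 and -0.01.

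Several noncoding models were lower beside Lars2. Gm26917, annotated as a lincRNA at chr17:39843013-39846341, was at 29.7 and 20.3 CPM in the control and 19.0 and 10.4 CPM in PA. Gm15564, annotated as an antisense RNA, was at 7.09 and 8.87 CPM in the control and 3.94 and 4.98 CPM in PA, with ratios of -0.84 and -0.82. Gm23935 and the miRNA locus Mir6236 were at 25.1 and 29.0 and at 16.2 and 22.0 CPM in the control, and at 10.6 and 21.0 and at 10.8 and 15.3 CPM in PA. All 4 had both PA libraries below both controls. Lars2 and Gm15564 lie on different chromosomes, 9 and 16. Their transcripts share 28 words of 25 bases, of 816 in Gm15564 and 11142 in Lars2. How reads from the shared stretches were counted is not stated. Without a stated strand, Gm15564 also cannot be told from any gene opposite it at its own locus. Gm26917 ends just before CT010467.1, which is annotated as ribosomal RNA and was named after its values were seen. CT010467.1 was at 1867 and 1142 CPM in the control and 960 and 1139 CPM in PA. Control 1 stood far above the other libraries, and PA and control were level in repeat 2. Mitochondrial ribosomal RNA had the same shape: mt-Rnr1 was at 515 and 364 CPM in the control and 332 and 366 CPM in PA. Whether leftover ribosomal RNA in the libraries has a part in the values of Lars2 and these models was not tested.

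Genes were then followed by cell type and function. All lists were chosen with earlier results of these data known, and their counts are set beside the shares over all genes given above (24.5% above 0 in both repeats, 20.5% below 0 in both, 12.1% and 9.69% without overlap). Median ratios over all tested genes were 0.008 in each repeat.

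Astrocyte genes were mostly higher in PA, and by more in repeat 2. Of 19 tested astrocyte genes of a list of 20, 13 were above 0 in both repeats (68.4%), 0 were below in both and 6 differed in sign. The median ratio was 0.31 in repeat 1 and 0.86 in repeat 2. Their summed level was 392 and 519 CPM in the control and 418 and 723 CPM in PA. Only 1 of the 19, the glutamine synthetase gene Glul, had both PA libraries above both controls, because control 2 exceeded PA 1 for most members. In bulk libraries, a larger share of astrocytes and more RNA per astrocyte cannot be told apart. The part of this difference in the values of Notch1, Sall1, Pla2g7 and the progenitor genes was not tested.

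The astrocyte members covered transport, metabolism and cytoskeleton. Slc1a3, the glutamate and aspartate transporter, was at 27.1 and 61.0 CPM in the control and 32.6 and 116 CPM in PA. Its log2 fold change was 0.64 (SE 0.35, edgeR unadjusted p 0.163). Slc1a2, the other main glial glutamate transporter, was at 163 and 177 CPM in the control and 169 and 215 CPM in PA, a nearly level pair in repeat 1. PA 2 stood highest for both of these genes. Aqp4, the water channel of astrocyte endfeet, was at 0.566 and 0.893 CPM in the control and 0.807 and 3.57 CPM in PA. Gja1, the gap junction protein connexin 43, had more even repeats, with 8.60 and 15.7 CPM in the control and 11.0 and 21.0 CPM in PA. Mlc1, a membrane protein of astrocyte junctions, was at 6.25 and 14.4 CPM in the control and 8.52 and 23.2 CPM in PA. Sox9, a transcription factor of glial fate, was at 11.4 and 20.9 CPM in the control and 14.1 and 27.4 CPM in PA. PA 2 was again the highest library for these 4 genes. Gfap, the intermediate filament of mature and reactive astrocytes, was close to absent, at 0.0298 and 0.595 CPM in the control and 0.226 and 1.36 CPM in PA, which are 1, 20, 7 and 43 counts. Apoe, a lipid carrier, did not share the direction in repeat 1, with ratios of -0.04 and 1.00. Of the 19 members, 7 had an unadjusted p under 0.05, and none was called, as no tested gene was in that fit.

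Progenitor genes were higher as well, by less. Of 18 genes of progenitors and radial glia, 12 were above 0 in both repeats (66.7%) and 2 below, with median ratios of 0.26 and 0.17. Slc1a3 is on this list as well as on the astrocyte list. Nes, the progenitor intermediate filament nestin, was at 38.0 and 76.6 CPM in the control and 43.4 and 87.4 CPM in PA. Msi1, an RNA-binding protein of progenitors, was at 80.7 and 84.7 CPM in the control and 98.2 and 90.1 CPM in PA, without overlap. Fabp7, a fatty acid binding protein of radial glia and astrocytes, was at 38.8 and 99.3 CPM in the control and 46.9 and 201 CPM in PA, again highest in PA 2. Eomes, which marks intermediate progenitors of the neuron lineage, went the other way. It was at 2.77 and 2.59 CPM in the control and 2.19 and 1.67 CPM in PA, below both controls. Hes1, a classical target of Notch receptors, was at 2.17 and 2.23 CPM in the control and 1.39 and 2.02 CPM in PA, so it did not share the direction of Notch1. Its log2 fold change was -0.38 (SE 0.36).

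**Figure D3:**
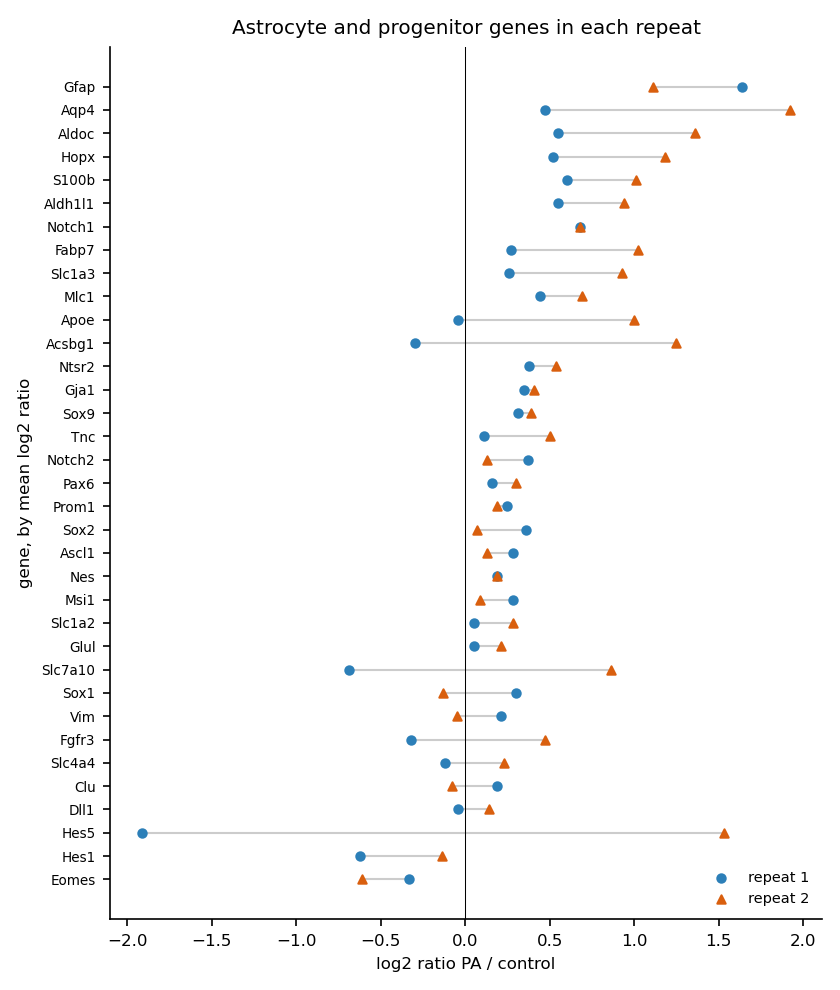
Log2 ratio of PA to control in repeat 1 (circles) and repeat 2 (triangles) for the tested astrocyte and progenitor genes, 1 left out, ordered by the mean of the 2 ratios. Most genes lie to the right of 0 in both repeats, with repeat 2 farther right for Aldoc (1.36) and Fabp7 (1.02), while Eomes and Hes1 lie to the left.

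Division genes had the same direction. Of 18 DNA replication genes, 14 were above 0 in both repeats (77.8%) and 1 was below, with median ratios of 0.16 and 0.18. Mcm2 and Mcm4, subunits of the replicative helicase, were at 10.7 and 15.6 and at 13.2 and 17.6 CPM in the control, and at 14.0 and 20.2 and at 17.0 and 22.6 CPM in PA. Pcna, the sliding clamp of DNA polymerase, was at 34.7 and 38.7 CPM in the control and 37.5 and 43.7 CPM in PA. Of 18 mitosis genes, 12 were above 0 in both repeats (66.7%) and 1 was below, with median ratios of 0.16 and 0.36. Mki67, a marker of cycling cells, was at 17.2 and 36.5 CPM in the control and 18.1 and 55.6 CPM in PA, so PA and control were close in repeat 1 and apart in repeat 2. Ccnb1, the mitotic cyclin B1, was at 3.04 and 6.58 CPM in the control and 4.39 and 9.15 CPM in PA. For both lists the control libraries differed from each other by more than PA differed from control. Their summed levels were 221 and 286 CPM (replication) and 124 and 232 CPM (mitosis) in the control, and 243 and 318 CPM and 137 and 305 CPM in PA. Only 1 replication gene, the licensing factor Cdt1, and 0 mitosis genes had PA above control without overlap.

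Oligodendrocyte precursor and myelin genes were counted apart. Of 9 tested precursor genes, 0 were above 0 in both repeats, 2 were below in both and 7 differed in sign, with medians of -0.36 and 0.39. Olig1, a transcription factor of the lineage, was at 12.5 and 37.9 CPM in the control and 9.75 and 59.6 CPM in PA. Pdgfra, the growth factor receptor of precursors, was at 7.29 and 11.9 CPM in the control and 3.68 and 19.97 CPM in PA. Both genes were lowest in PA 1 and highest in PA 2. Of 11 tested genes of myelin and mature oligodendrocytes, 6 were above 0 in both repeats (54.5%), 1 was below and 4 had PA above control without overlap, with medians of 0.55 and 0.04. Only 4 of these 11 genes had a mean of at least 5 CPM, and the median of their mean ratios was 0.24. Mbp, myelin basic protein, was at 21.3 and 21.9 CPM in the control and 26.1 and 24.5 CPM in PA, without overlap and with a log2 fold change SE of 0.19.

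ATF4 targets and genes of amino acid supply had median ratios of like size in both repeats. In the response to amino acid shortage, uncharged tRNA or other stress leads to translation of the transcription factor ATF4, which raises genes of amino acid synthesis, amino acid uptake and tRNA charging. Of 30 genes in a list of ATF4 targets and amino acid supply, 21 were above 0 in both repeats (70.0%), 0 were below in both and 9 differed in sign. The median ratios were 0.13 and 0.18. In 17 of the 30, both PA libraries lay above both controls, against 12.1% of all genes. Their summed level was 1920 and 1970 CPM in the control and 2080 and 2150 CPM in PA. None of the 30 was called, as no tested gene was in the edgeR fit of all libraries, and 6 had an unadjusted p under 0.05.

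The differences were small for most members of the list. Atf4 itself was at 302 and 279 CPM in the control and 317 and 313 CPM in PA. Asns, asparagine synthetase, was at 179 and 170 CPM in the control and 187 and 198 CPM in PA. Chac1, a glutathione-degrading enzyme induced by ATF4, was at 17.6 and 16.5 CPM in the control and 23.6 and 20.8 CPM in PA. All 3 genes were without overlap, with log2 ratios of 0.07 and 0.16 for Atf4, 0.06 and 0.22 for Asns, and 0.42 and 0.33 for Chac1. Among transporters, Slc7a5, which imports large neutral amino acids, was at 208 and 208 CPM in the control and 229 and 243 CPM in PA. Slc7a1, another arginine and lysine transporter, was at 154 and 158 CPM in the control and 175 and 171 CPM in PA. With Slc7a3, described above, all 3 carriers had both PA libraries higher. In serine synthesis, Phgdh was at 6.07 and 10.2 CPM in the control and 8.10 and 14.9 CPM in PA, and Psat1 at 97.2 and 113 CPM in the control and 108 and 128 CPM in PA. Both overlapped, as control 2 lay above PA 1. Trib3, a stress-induced pseudokinase, did not share the direction, at 1.52 and 1.79 CPM in the control and 3.001 and 1.58 CPM in PA. Ddit4 and Slc7a11 also differed in sign between repeats, and Slc7a11, the cystine transporter, was at 15.8 and 59.0 CPM in the control and 17.0 and 55.5 CPM in PA.

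Cytosolic tRNA synthetases, which charge tRNAs and include ATF4 targets, were higher by a smaller amount. Of 20, 12 were above 0 in both repeats (60.0%) and 3 below, and 9 had both PA libraries above both controls. The median ratios were 0.04 and 0.07. Nars, the asparaginyl enzyme, was at 271 and 266 CPM in the control and 284 and 291 CPM in PA. Iars, the isoleucyl enzyme, was at 146 and 147 CPM in the control and 153 and 163 CPM in PA. Their SEs were 0.06 and 0.07, close to the size of the log2 ratios (0.07 and 0.13 for Nars, 0.06 and 0.15 for Iars). Chaperones of the endoplasmic reticulum, which belong to the unfolded protein response, had 6 of 17 above 0 in both repeats (35.3%) and 2 below.

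**Figure D4:**
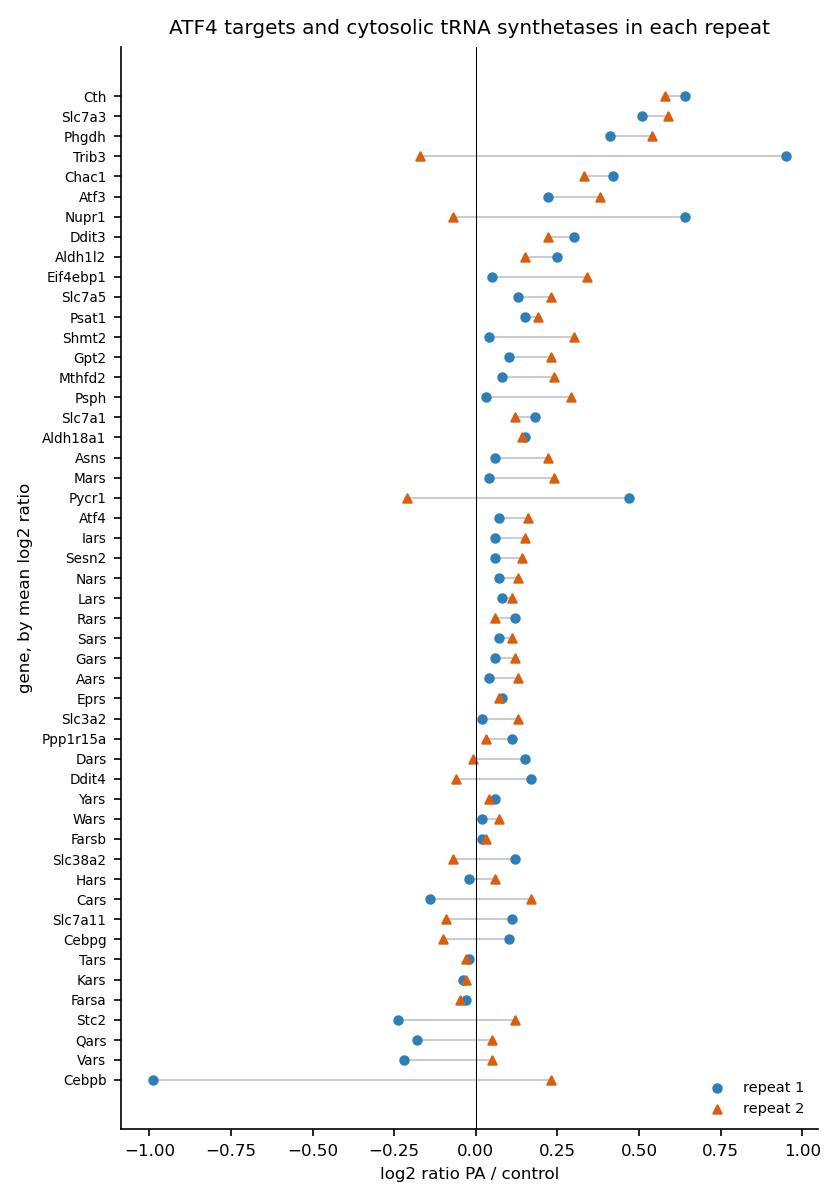
Log2 ratio of PA to control in repeat 1 (circles) and repeat 2 (triangles) for each tested gene of the ATF4 list and the cytosolic tRNA synthetases, ordered by the mean of the 2 ratios. Most pairs lie just to the right of 0 and close together, as for Slc7a3 (0.51 and 0.59), while Trib3, Nupr1, Pycr1 and Cebpb are split between the repeats.

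In the ATF4 list, 21 of 30 genes were above 0 in both repeats and 9 differed in sign. Promoters of this list and of the tRNA synthetases are shown because ATF4 pairs with C/EBP proteins on a known element. The core searched was TGATGNAA, on both strands, in the window from 250 bases before to 50 bases after the start of each gene in RefSeq (GRCm38.p6). It occurred in 1304 of 32851 promoters in that table (3.97%), and in at least 1 promoter of 1219 of 27025 genes (4.51%). Of the 25 ATF4-list genes with a promoter there, 7 held it (28.0%): Asns, Atf3, Chac1, Nupr1, Pycr1, Slc7a11 and Trib3. Of 12 cytosolic tRNA synthetases with a promoter, 5 held it (41.7%), a set looked at after its values were seen. Those promoters belong to Aars, Gars, Iars, Tars and Yars. Both lists include known ATF4 targets, so a share above that of all genes is partly built into them and says nothing about PA. Capitals mark the match, on the strand of the gene or its complement, for Chac1 (chr2:119350992-119351291, plus strand, 193 bases upstream of the start), Asns (chr6:7693160-7693459, minus strand, 23 bases upstream) and Iars (chr13:49681880-49682179, plus strand, just after the start).
Chac1: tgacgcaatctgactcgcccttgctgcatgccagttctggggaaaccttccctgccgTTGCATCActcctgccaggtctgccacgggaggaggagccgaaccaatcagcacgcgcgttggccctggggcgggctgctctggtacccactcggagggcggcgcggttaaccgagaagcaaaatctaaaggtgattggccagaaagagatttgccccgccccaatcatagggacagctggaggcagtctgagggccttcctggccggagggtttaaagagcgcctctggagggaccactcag
Asns: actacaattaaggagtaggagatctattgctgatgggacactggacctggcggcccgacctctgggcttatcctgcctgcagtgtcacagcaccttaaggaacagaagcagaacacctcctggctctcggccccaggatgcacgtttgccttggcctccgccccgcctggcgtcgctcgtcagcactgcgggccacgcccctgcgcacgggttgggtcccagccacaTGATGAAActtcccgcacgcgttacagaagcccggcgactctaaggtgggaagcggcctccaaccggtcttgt
Iars: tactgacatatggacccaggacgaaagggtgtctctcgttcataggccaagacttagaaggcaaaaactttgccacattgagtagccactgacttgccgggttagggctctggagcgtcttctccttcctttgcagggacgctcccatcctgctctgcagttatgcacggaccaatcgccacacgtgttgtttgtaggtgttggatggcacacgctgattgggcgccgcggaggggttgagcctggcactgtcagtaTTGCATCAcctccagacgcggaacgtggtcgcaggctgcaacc

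Of the 7 ATF4-list genes with a match, 3 were above 0 in both repeats, and of the 18 without, 13 were. Of the 5 tRNA synthetases with a match, 4 were above 0 in both, and of the 7 without, 3 were. Asns, Atf3 and Chac1 were above 0 in both repeats and had both PA libraries above both controls. Nupr1, Pycr1, Slc7a11 and Trib3 hold the core as well and differed in sign between repeats. A match is a description of the letters and shows no binding.

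No laminin receptor or laminin chain gene was called, as 0 of all 17299 tested genes were. Of 17 tested integrin and other laminin receptor genes, 6 were above 0 in both repeats (35.3%), 2 were below and 9 differed in sign, with medians of 0.08 and -0.04. Itgb1, the beta 1 subunit shared by most laminin-binding integrins, was at 109 and 132 CPM in the control and 121 and 129 CPM in PA. Itga6, an alpha subunit that pairs with it on laminin, was at 23.9 and 33.5 CPM in the control and 25.3 and 41.4 CPM in PA. Dag1, the laminin receptor dystroglycan, was at 196 and 214 CPM in the control and 208 and 217 CPM in PA. All 3 overlapped between groups, and the log2 fold change of Itgb1 was 0.05 with an SE of 0.08. Of the 11 laminin chains, 2 were above 0 in both repeats and 4 below (36.4%), with medians of -0.00 and -0.20. Lamc1, the gamma 1 chain of most laminins, was at 55.1 and 68.3 CPM in the control and 58.5 and 61.6 CPM in PA. Lama1, the chain that holds IKVAV, was at 8.22 and 8.48 CPM in the control and 8.94 and 9.24 CPM in PA, without overlap and with a log2 fold change SE of 0.18.

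Matrix genes differed in sign between repeats more often than not. Of 21 basement membrane and matrix genes, 17 differed in sign, with a median ratio of 0.16 in repeat 1 and -0.49 in repeat 2. Col4a1, a chain of basement membrane collagen, was at 72.6 and 85.2 CPM in the control and 88.7 and 52.4 CPM in PA. Fn1, fibronectin, was at 109 and 145 CPM in the control and 127 and 102 CPM in PA. For both, PA was the higher library in repeat 1 and the lower in repeat 2. Of 13 YAP and TEAD genes, 6 were above 0 in both repeats (46.2%), 0 were below and 7 differed in sign, with medians of 0.34 and -0.01. Acta2, marker of mural cells and fibroblasts, was at 53.7 and 87.8 CPM in the control and 75.6 and 44.2 CPM in PA, and 10 of 13 genes of those cells differed in sign too.

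Maturation and activity genes, to which the title of the study points, had median ratios close to 0 or of opposite sign. Of 20 presynaptic genes, 7 were above 0 in both repeats (35.0%) and 0 below, 4 had PA above control without overlap, and the medians were 0.05 and 0.03. Syn1, a synaptic vesicle protein, was at 405 and 445 CPM in the control and 424 and 445 CPM in PA. Sv2a, another vesicle protein, was at 334 and 309 CPM in the control and 345 and 349 CPM in PA, without overlap. Of 23 postsynaptic genes, 2 were above and 6 below 0 in both repeats, with medians of -0.05 and 0.02. Of 23 activity-regulated genes, 18 differed in sign, with medians of -0.16 and 0.09. Fos, an immediate early transcription factor, was at 63.5 and 60.9 CPM in the control and 59.2 and 71.5 CPM in PA. Bdnf, a neurotrophin induced by activity, was at 67.6 and 64.4 CPM in the control and 58.0 and 77.3 CPM in PA. Both were lowest in PA 1 and highest in PA 2, with log2 fold changes of 0.07 (SE 0.13) and 0.04 (SE 0.16). Among neuron classes, 12 of 18 projection neuron genes and 15 of 17 GABA neuron genes differed in sign. Slc17a7, the vesicular glutamate transporter of mature cortical excitatory neurons, was at 59.2 and 58.6 CPM in the control and 62.3 and 84.7 CPM in PA, with PA 2 apart from the other 3 (unadjusted p 0.0355 in edgeR, adjusted p 1.00).

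Mitochondrial and ribosomal genes closed the set. Of 13 mitochondrially encoded mRNAs on the list, 7 were tested. All 7 differed in sign, with medians of -0.58 and 0.18. mt-Co1, a subunit of cytochrome oxidase, was at 5501 and 4949 CPM in the control and 3681 and 5575 CPM in PA, so PA 1 was the lowest library. The mitochondrial share of all counts was 1.94% in control 1, 1.58% in control 2, 1.28% in PA 1 and 1.78% in PA 2. Of 30 cytosolic ribosomal protein genes, 0 were above 0 in both repeats and 13 were below (43.3%), with medians of 0.01 and -0.07. Rpl4 was at 550 and 569 CPM in the control and 536 and 534 CPM in PA, without overlap. Its ratios of -0.04 and -0.09 were close to its SE of 0.07.

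**Figure D5:**
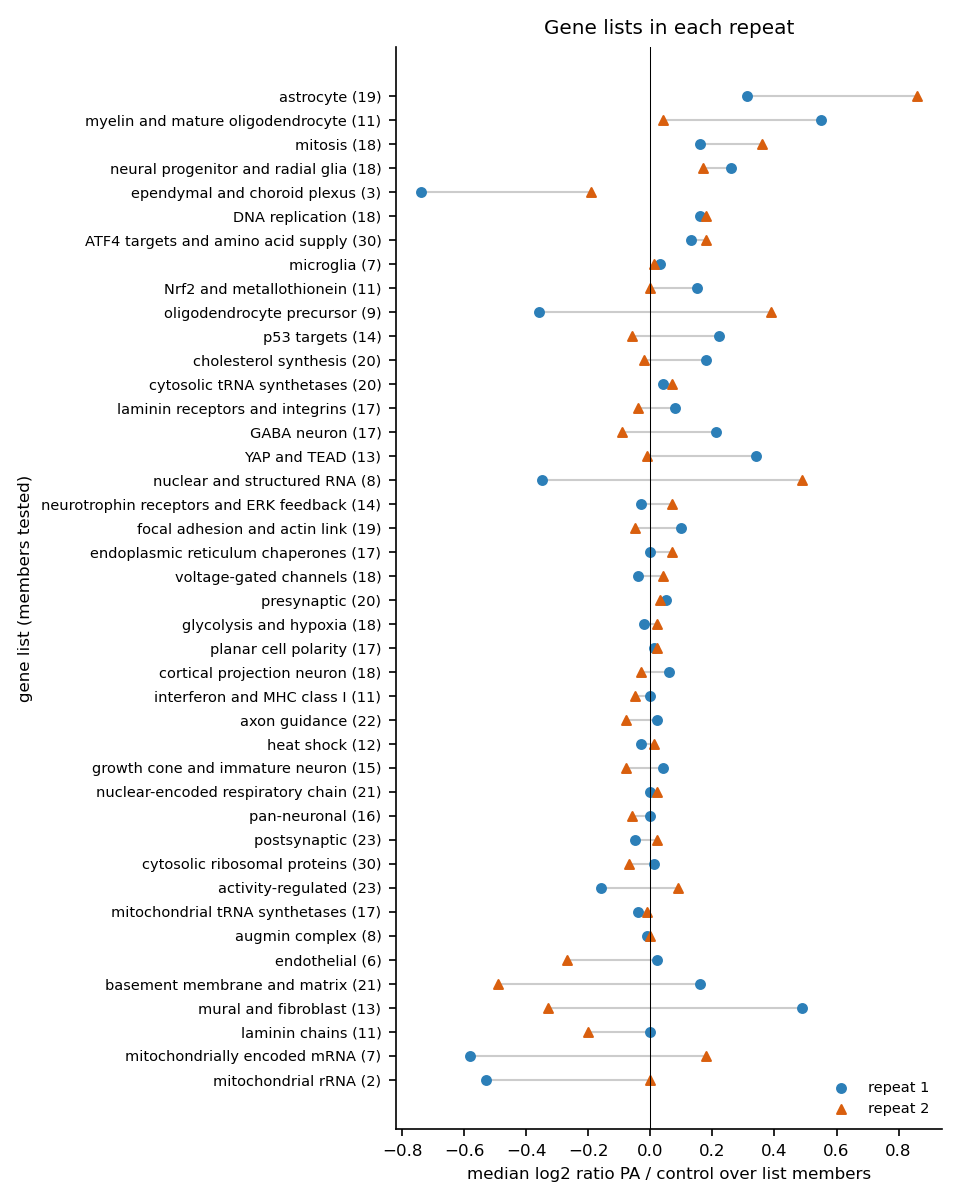
Median log2 ratio of PA to control over the tested members of each gene list, in repeat 1 (circles) and repeat 2 (triangles), ordered by the median of the members' mean ratio, with the number of tested members in brackets. Astrocyte genes (0.31 and 0.86), mitosis, DNA replication and progenitor genes and ATF4 targets (0.13 and 0.18) lie to the right in both repeats, while matrix and mitochondrially encoded genes straddle 0.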

How the data were processed

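Per the labels' protocols, RNA came from an RNeasy micro kit and went into TruSeq Total RNA libraries. The authors deposited whole-number read counts per Ensembl gene, 1 library per file, without normalization, per the file headers and values. STAR 2.7.5, HTSeq 2.0.2, cutadapt 4.2, DESeq2 1.14.1 and the mm10 build stand in the submitters' processing notes, without roles. The sources used here do not give the counting settings or strand; overlapping and antisense genes are uncertain.

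Of 54232 genes, filterByExpr kept 17299. edgeR 4.0.16 (R 4.3.3; TMM, robust quasi-likelihood F test, Benjamini-Hochberg adjusted p under 0.05) was fitted to all 6 libraries with group and repeat number, which leaves 2 residual degrees of freedom. The fitting script was tested on simulated data. DESeq2 1.42.0 and limma 3.58.1 were alternatives. Ratios within a repeat used log2 CPM with a prior count of 2. Repeat numbers come from the titles, which do not say what they mark. Repeat 1 minus repeat 2 differences correlated at r = 0.64 between control and PA over 10776 genes of at least 5 CPM, and the 2 libraries of a group were no copies of each other (chi-square per degree of freedom 18.4 in control, 14.6 in PA). Coordinates are from GENCODE M21, promoters from RefSeq.

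The libraries compared, the 42 gene lists and the tests were chosen with earlier results of these data known. Genes named are the first 12 in each direction by the smaller of their ratios at 5 CPM or more, the 8 smallest p-values, up to 4 members per list by ratio and 4 by level, check genes, and genes called with 4 libraries. Chosen after their values were seen were Acsbg1, Apoe, Aqp4, Atf3, Cdt1, Cebpb, Col4a1, CT010467.1, Ddit4, Gja1, Hes1, Iars, Mlc1, mt-Rnr1, Nupr1, Psat1, Pycr1, Slc7a1, Slc7a11, Sox9, Tars, Trib3, Yars and those under other observations. A few genes counted in the lists are not reported here by name. Alternatives were other scalings, filters, tools and prior counts, other folds and levels for the counts over both repeats, fits without the block or with 4 libraries, and each library left out.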

Additional observations from a re-analysis of the deposited data

How the results depend on the processing

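The number of genes called was 0 with the repeat number as a block and 0 with no replicate block (103 at an unadjusted p under 0.05). In DESeq2 the pairing changed a call: 1 gene, Lars2, passed with the block (adjusted p 0.0432) and 0 genes without it (smallest adjusted p 0.993). With edgeR it was also 0 with RLE size factors, with library totals alone and with at least 50 counts in 2 libraries. With edgeR it was 2 with only the PA and control libraries and 7 without a filter (over 31201 genes). Leaving out each library in turn gave 0 to 35 genes. The causes were not tested. Genes past a log2 ratio of 0.32 in both repeats numbered 224 higher and 111 lower, and 46 and 11 at a mean of 5 CPM or more. They numbered 40 and 20 at 1.5-fold and 752 and 473 at 1.1-fold, as a stricter or looser threshold makes them. Leaving out a library breaks a pair, so these counts have no such value. Counts above 0 in both repeats for astrocyte, progenitor, DNA replication, mitosis, ATF4 and tRNA synthetase genes did not change with scaling or prior count. Those settings shift the ratios little, so the counts could hardly move. Among members of at least 5 CPM they were 9 of 14 (astrocyte), 11 of 14 (progenitor) and 11 of 14 (DNA replication). For mitosis, ATF4 and tRNA synthetase genes they were 10 of 12, 19 of 25 and 12 of 20. The median ratio over all genes, 0.008 in each repeat, was -0.003 and 0.005 with RLE size factors and 0.008 and 0.016 with library totals. Depth limits the low genes most: the median SE of a log2 fold change was 0.33 at 1 to 5 CPM and 0.07 above 100 CPM.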

Other observations

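Of 13 other genes of the Notch pathway, chosen after the values of Notch1 and Notch3 were seen, 7 were above 0 in both repeats, 2 were below in both and 4 differed in sign. Over all tested genes, 24.5% were above 0 in both repeats and 20.5% below. The receptor genes Notch2 and Notch4 were among the 7, with ratios of 0.37 and 0.13 for Notch2 and 0.15 and 0.19 for Notch4. So were Lfng, which modifies the receptors, with 0.09 and 0.85, and the feedback gene Nrarp, with 0.42 and 0.21. Nrarp rests on few counts, 23 and 39 in the control and 29 and 43 in PA. The SE of the log2 fold change was 0.44 for Nrarp and 0.28 for Notch4. The ligand gene Jag1 was also above 0 in both, at 3.78 and 4.55 CPM in the control and 5.32 and 5.80 CPM in PA, without overlap. The ligand gene Dll3 was at 1.58 and 4.02 CPM in the control and 2.74 and 5.11 CPM in PA, with control 2 above PA 1. The ligand gene Jag2 went the other way, at 85.1 and 56.7 CPM in the control and 70.5 and 54.0 CPM in PA. Among target genes, Hey1 was at 7.06 and 9.52 CPM in the control and 7.68 and 10.7 CPM in PA, and Hes5 at 0.536 and 0.625 CPM in the control and 0.0968 and 1.92 CPM in PA. Hes5 was lowest in PA 1 and highest in PA 2, on 18 and 21 counts in the control and 3 and 61 in PA (log2 fold change SE 0.82). None of these genes was called by edgeR, as no tested gene was in the fit of all libraries.

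Genes with a log2 ratio of at least 0.32 in both repeats but outside the first 12 included further glial and growth genes, named here after their values were seen. Egfr, the epidermal growth factor receptor of progenitors and glia, was at 13.6 and 34.2 CPM in the control and 17.5 and 54.0 CPM in PA, with control 2 above PA 1. The log2 fold change of Egfr was 0.54 (SE 0.61, edgeR unadjusted p 0.444). Hepacam, an astrocyte adhesion protein, was at 2.89 and 6.22 CPM in the control and 3.71 and 8.86 CPM in PA. Vcam1, an adhesion protein of neural stem cells and vessels, was at 3.39 and 6.64 CPM in the control and 4.52 and 9.97 CPM in PA. PA 2 was the highest library for all 3.

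A few genes had higher levels in PA, repeats that were alike and no overlap between groups. Haus6, of the augmin complex that branches microtubules, was at 12.5 and 11.9 CPM in the control and 16.4 and 16.3 CPM in PA (edgeR unadjusted p 0.00824, adjusted p 1.00). Prickle1, of planar cell polarity, was at 31.6 and 32.0 CPM in the control and 40.6 and 39.8 CPM in PA (edgeR unadjusted p 0.00351, adjusted p 1.00), and its ratio of 0.31 in repeat 2 lay just under the threshold of 0.32. Ddr2, a collagen receptor kinase, was at 7.23 and 8.39 CPM in the control and 10.7 and 10.7 CPM in PA. Crym, a thyroid hormone binding protein of cortical neurons, was at 8.75 and 8.07 CPM in the control and 11.1 and 10.8 CPM in PA. The other members of the lists of Haus6 and Prickle1 were split: of 8 augmin genes 2 were above 0 in both repeats and 3 below, and of 17 polarity genes 4 were above and 2 below.

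Cholesterol synthesis genes were higher in PA in repeat 1 and level in repeat 2. Of 20, 7 were above 0 in both repeats and 0 below, with a median ratio of 0.18 in repeat 1 and -0.02 in repeat 2. Lss, which closes the sterol ring system, was at 179 and 179 CPM in the control and 205 and 181 CPM in PA. The difference between repeats was not tested.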
